A study of Mus musculus with 9 samples.

Results

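The genes described here are 41 cell cycle and proliferation genes, measured by RNA-Seq in the livers of ethanol-fed mice. They were chosen by name from the gene table, which holds 55401 genes, and the list covers G1 cyclins and their kinases, DNA replication, nucleotide supply, transcription factors of the cycle, mitosis, and brakes on the cycle or stress-responsive genes. All 41 were found. Levels are in FPKM, the fragments of a gene divided by its transcript length in kilobases and by the size of the library. Of the 41 members, 25 reached a mean of 0.5 FPKM over the libraries and were tested, as were 12350 genes in all, and 16 members lay below that limit.

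A hepatocyte of an adult liver rests outside the cycle and can re-enter it after injury or loss of tissue. D-type cyclins with CDK4 and E-type cyclins with CDK2 drive the cell past G1, E2F factors switch on the replication genes, and the mitotic genes follow through FOXM1 and the DREAM and MuvB complexes, which bind the CHR promoter element. The p53 target *Cdkn1a* (p21) and *Cdkn1b* (p27) encode inhibitors of these kinases, and their levels set how readily a cell leaves G1.

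The study asked how NCF1 (p47phox), a subunit of the phagocyte NADPH oxidase, acts in alcoholic liver disease. Livers came from 4 Ncf1-Lyz-/- mice, called NKO, and from 5 WT mice, all females aged 10 to 12 weeks on a C57BL/6J background. The NKO mice carry floxed *Ncf1* and Lyz-Cre, which the lysozyme promoter drives in myeloid cells, and the WT mice are littermates with floxed *Ncf1* and no Cre, so that Cre itself was present in the NKO group alone. Every mouse had 5 days of acclimation on liquid diet and then 10 days on a liquid diet with 5% ethanol. After these came 1 gavage of ethanol at 5 g/kg, 9 hours before the liver was taken. No mouse without ethanol was analysed here. A library is named as its column is (NKO2 to NKO5 and WT1, WT2, WT3, WT4 and WT6), and each comes from 1 mouse.

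Depth recovered from the FPKM steps was 18.81 to 19.99 M fragments (M for mega) in the NKO libraries and 15.4 to 18.87 M in the WT libraries. WT3, WT4 and WT6 were the shallower ones, so depth and genotype cannot be fully told apart, and members are also given for the 6 libraries of higher depth (NKO2 to NKO5, WT1 and WT2). The summed level of the hepatocyte markers, led by *Alb* and *Apoa1*, was 42425 to 59033 FPKM in all libraries. The targeted gene *Ncf1*, low in whole liver, was at 0.368, 0.333, 0.44 and 0.885 FPKM in NKO2 to NKO5 and at 1.83, 1.16, 0.492, 0.366 and 1.1 FPKM in WT1, WT2, WT3, WT4 and WT6. The groups overlapped (two-sided exact permutation p = 0.175), so the label could not be read from this gene in every library.

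No member passed the test between NKO and WT. With limma on log2(FPKM + 0.1), the smallest adjusted p of the 25 tested members was 0.842, and 1 of the 12350 genes tested, or 0.0081%, had an adjusted p under 0.05. At an unadjusted p under 0.05, 0 members were higher in NKO mice and 2 were lower, *Ccng1* and *Cdkn1b*, where 2.17% of all genes tested were higher, 3.73% lower and 5.9% either. With no filter on low values the same 2 members had an unadjusted p under 0.05, where 4.71% of 27062 genes did. The groups did not overlap for 0 members, where 0.713% of all genes tested lay higher and 1.5% lower without overlap. Of the tested members 14 had a higher and 11 a lower mean in NKO mice. Their median log2 fold change was 0.03, beside 0.003 over all genes tested. Which liver held the most of a role's transcripts differed between the roles, and this order is described below with no test.

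**Figure D1:**
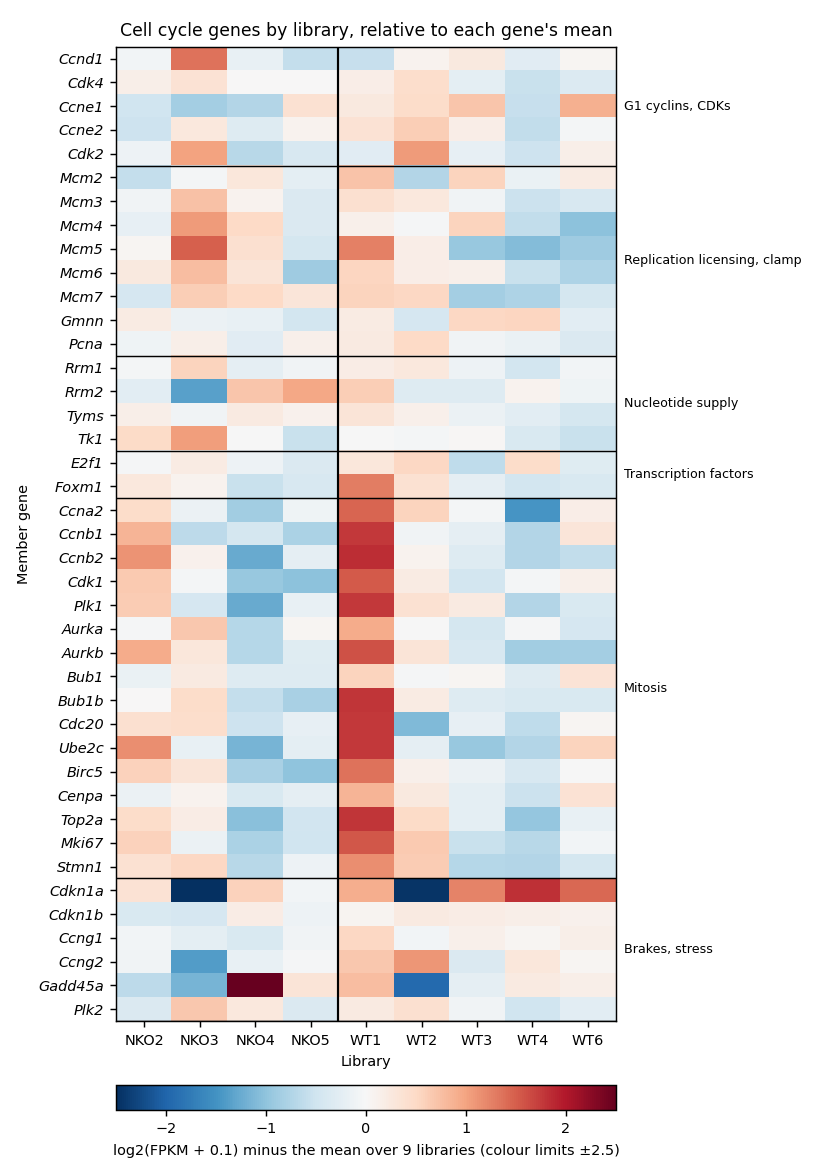
Level of the 41 genes (rows, by role) in each library (columns, NKO left of the line), as log2(FPKM + 0.1) minus the gene's mean over 9 libraries, red for above and blue for below. The 16 mitosis genes are each highest in WT1, the Mcm genes are mostly reddest in NKO3, and *Cdkn1a* is lowest in NKO3 and WT2.

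The 16 mitosis genes were low in every liver, at means of 0.0286 FPKM for *Bub1*, a spindle checkpoint kinase, to 1.94 FPKM for *Stmn1*, which binds tubulin. All 16 were highest in the same liver, WT1. To show the promoter letters that mitotic genes are known for, the 150 bases before the RefSeq start are printed for 4 of them that hold CHR letters there, for *Plk1* and *Birc5*, which hold none, and for the replication gene *Mcm6*. The windows in RefSeq's GRCm38.p6 are, on the minus strand, chr10:69352913-69353062 for *Cdk1*, chr4:118437344-118437493 for *Cdc20*, chr11:99024190-99024339 for *Top2a*, chr7:135716380-135716529 for *Mki67* and chr1:128359706-128359855 for *Mcm6*, and on the plus strand chr7:122159285-122159434 for *Plk1* and chr11:117849087-117849236 for *Birc5*. Capitals mark the CHR letters TTTGAA or TTCGAA, the CCAAT box, and the E2F letters TTCCCGC or TTGGCGC, on either strand, so that ATTGG is a CCAAT box and TTCAAA a CHR read from the other strand. Each sequence is printed 5′ to 3′ along the gene.
*Cdk1*: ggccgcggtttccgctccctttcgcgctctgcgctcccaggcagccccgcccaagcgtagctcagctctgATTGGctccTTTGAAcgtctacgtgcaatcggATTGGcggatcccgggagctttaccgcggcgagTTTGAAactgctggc
*Cdc20*: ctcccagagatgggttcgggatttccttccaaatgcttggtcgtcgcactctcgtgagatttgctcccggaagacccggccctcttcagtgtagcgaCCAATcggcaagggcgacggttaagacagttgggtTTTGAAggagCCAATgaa
*Top2a*: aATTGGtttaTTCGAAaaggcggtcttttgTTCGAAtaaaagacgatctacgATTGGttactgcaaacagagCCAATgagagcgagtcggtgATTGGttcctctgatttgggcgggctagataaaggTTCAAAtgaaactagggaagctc
*Mki67*: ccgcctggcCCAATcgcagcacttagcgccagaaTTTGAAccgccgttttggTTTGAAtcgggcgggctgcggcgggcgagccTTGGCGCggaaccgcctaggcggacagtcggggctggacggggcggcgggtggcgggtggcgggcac
*Plk1*: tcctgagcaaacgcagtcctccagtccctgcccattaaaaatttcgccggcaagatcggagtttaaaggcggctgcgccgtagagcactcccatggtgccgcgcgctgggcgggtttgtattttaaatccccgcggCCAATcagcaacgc
*Birc5*: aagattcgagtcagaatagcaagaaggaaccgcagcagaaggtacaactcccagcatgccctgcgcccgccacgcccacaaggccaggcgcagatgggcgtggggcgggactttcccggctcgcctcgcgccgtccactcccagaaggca
*Mcm6*: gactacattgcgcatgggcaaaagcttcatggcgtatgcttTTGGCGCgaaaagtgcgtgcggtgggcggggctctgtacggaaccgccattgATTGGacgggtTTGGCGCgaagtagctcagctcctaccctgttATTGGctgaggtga

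*Cdk1* and *Top2a* carried CHR and CCAAT letters within these windows, as did *Cdc20*, whose CHR letters lie 18 bases before the start, and *Mki67*, which also had E2F letters. *Plk1* had a CCAAT box alone, *Birc5* had none of the letters, and *Mcm6* had CCAAT and E2F letters and no CHR letters in its window. Promoters were found for 33 of the 41 members and for 13 of the 16 mitosis genes. In the 250 bases before the start, 7 of 13 mitosis promoters held CHR letters, or 53.8%, and those of *Aurka*, *Birc5*, *Bub1*, *Ccnb1*, *Cenpa* and *Plk1* held none, beside 17.4% of 27025 RefSeq promoters and 12.5% of the 8687 promoters of genes past the filter. CCAAT stood in 92.3% of the mitosis promoters and in 34.5% of all promoters. Both stood together in 7 of 13, beside 6.2% of all promoters. The licensing and clamp promoters held them too: of the 6 found, 33.3% held CHR letters (*Mcm2* and *Mcm7*) and all 6 held CCAAT. E2F letters stood in 23.1% of the mitosis promoters and in 50.0% of the 6 licensing and clamp promoters. They stood in 5.7% of all promoters and in 9.9% of those of genes past the filter. The E2F letters GCGCCAA and the CCAAT box share bases where they adjoin, and a match is a description of the letters, not a shown binding site.

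*Mki67*, the proliferation marker Ki-67 (chr7:135689784-135716361 in the GENCODE M21 annotation), was at 0.347, 0.172, 0.0751 and 0.113 FPKM in NKO2 to NKO5 and at 0.783, 0.372, 0.104, 0.0861 and 0.187 FPKM in WT1, WT2, WT3, WT4 and WT6. *Top2a*, the DNA topoisomerase that untangles sister chromatids, was at 0.24, 0.183, 0.0195 and 0.0782 FPKM in the NKO livers and at 0.76, 0.246, 0.109, 0.027 and 0.116 FPKM in the WT livers. Both were highest in WT1 and lowest in NKO4, and the groups overlapped. In fragments the values are few: *Top2a* was seen with about 73 fragments in WT1 and about 2 in NKO4 and in WT4.

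*Cdk1*, the kinase that starts mitosis, was at 0.457, 0.242, 0.082 and 0.0727 FPKM in the NKO livers and at 0.918, 0.308, 0.158, 0.243 and 0.287 FPKM in the WT livers. Its partner cyclin gene *Ccnb2* was at 1.14, 0.514, 0.138 and 0.387 FPKM and at 1.96, 0.506, 0.357, 0.244 and 0.273 FPKM. WT1 was highest and NKO2 second for both, and the other 7 livers of both genotypes were interleaved. *Cdc20*, which activates the anaphase-promoting complex, was at 0.721, 0.737, 0.334 and 0.438 FPKM in the NKO livers and at 2.0, 0.19, 0.438, 0.296 and 0.542 FPKM in the WT livers. Here WT1 was again highest and WT2 lowest, so the WT group held both ends of the range.

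Over the 16 genes WT1 exceeded the next liver by 1.22 to 3.25 times (median 1.93) and the median of the other 8 by 2.11 to 9.00 times (median 5.01). *Bub1b*, a spindle checkpoint kinase gene, had the largest of both ratios, and *Aurka*, the centrosomal Aurora kinase, the smallest. The others were *Ccna2* and *Ccnb1* (A- and B-type cyclins), *Plk1* and *Aurkb* (mitotic kinases), *Bub1*, *Ube2c* (the E2 enzyme of the anaphase-promoting complex), *Birc5* (survivin), *Cenpa* (the centromeric histone) and *Stmn1*. As a background, 12.6% of the genes tested and 14.3% of genes with means in the same range were highest in WT1. The 16 genes are expressed together by dividing cells and are not 16 independent observations. After rescaling the libraries by median ratios WT1 was still highest for 16 of 16. The ratios rest on few fragments: about 5 to 145 per gene in WT1 (median 50.5). In the lowest library of each gene there were about 0 to 17 (median 4). *Bub1* had about 5 fragments in WT1 and about 3 in NKO3 and in WT6, and was absent in 3 libraries.

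Summed over the 16 genes, the level was 9.08, 7.32, 2.81 and 4.59 FPKM in NKO2 to NKO5 and 18.8, 7.39, 4.18, 3.31 and 5.24 FPKM in WT1, WT2, WT3, WT4 and WT6. WT1 stood alone at the top, and the remaining livers of both genotypes were interleaved. NKO2 was second for 7 of the 16 genes and NKO4 lowest for 7. In bulk liver, fewer cells of a type and less RNA per cell cannot be told apart. The 8 erythroid markers, led by *Hbb-bs* and *Hba-a2*, were also highest in NKO2 and WT1, at sums of 2086 and 1926 FPKM. WT3, next at 1775 FPKM, had a mitosis sum of 4.18 FPKM, and NKO3, at 579 FPKM, had one of 7.32 FPKM. The part of blood-forming or other non-hepatocyte cells in these values was not tested.

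**Figure D2:**
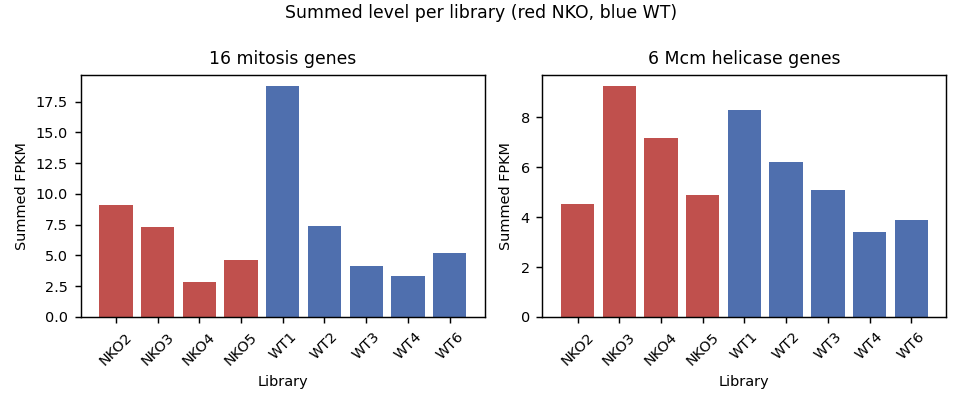
Summed FPKM per library for the 16 mitosis genes (left) and for the 6 Mcm helicase genes *Mcm2* to *Mcm7* (right), red bars NKO, blue bars WT. The mitosis sum is 18.8 in WT1 and at most 9.08 elsewhere, and the Mcm sum is highest in NKO3 at 9.25, with WT1 second at 8.29.

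Between the genotypes, 13 of the 16 mitosis genes had a lower and 3 a higher mean in NKO mice, with a median log2 fold change of −0.30. Without WT1, left out in a comparison added after the data were seen, 8 were higher and 8 lower, with a median of 0.0011. Only 4 passed the filter (*Ccnb2*, *Aurka*, *Cdc20* and *Stmn1*), with log2 fold changes of −0.12, −0.01, 0.06 and 0.03 and limma adjusted p-values of 0.983 to 0.996. In the 6 libraries of higher depth all 16 were lower in NKO mice, with a median log2 fold change of −1.0. None of the 4 past the filter had an unadjusted p under 0.05 there. WT1 is 1 of the 2 WT libraries in that comparison.

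The replication genes had another order. The 6 *Mcm* genes encode the helicase loaded at origins in G1, and their summed level was 4.54, 9.25, 7.18 and 4.88 FPKM in NKO2 to NKO5 and 8.29, 6.21, 5.10, 3.39 and 3.87 FPKM in WT1, WT2, WT3, WT4 and WT6. NKO3, not WT1, was highest, and NKO4, which was lowest for the mitosis sum, came next after WT1. With *Gmnn* (geminin, which blocks relicensing) and *Pcna* (the sliding clamp) they make 8 genes, of which 5 were highest in NKO3 and 1 in WT1, where 20.5% and 12.6% of all genes tested were. 

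*Mcm5* was at 0.31, 1.02, 0.421 and 0.192 FPKM in the NKO livers and at 0.849, 0.343, 0.105, 0.086 and 0.115 FPKM in the WT livers. *Mcm7* was at 1.46, 3.1, 2.84 and 2.47 FPKM and at 2.94, 2.86, 1.05, 1.11 and 1.43 FPKM. For both, WT3, WT4 and WT6 lay below each of the 6 other libraries, while WT1 and WT2 lay inside the NKO range. *Mcm7* had a log2 fold change of 0.46 ± 0.36 (SE; limma adjusted p = 0.900) over all libraries and of −0.28 in the 6 of higher depth, and *Mcm5*, below the filter, had 0.68 (two-sided exact permutation p = 0.302) and −0.33.

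The same gap between the shallower and deeper libraries was seen in *Cdk4* and *Tyms*, so 3 of the 25 tested members showed it, or 4 of 41 with *Mcm5*, where 7.5% of all genes tested did. *Mcm3*, *Mcm4* and *Mcm6* ranged from 0.274 FPKM (*Mcm4* in WT6) to 1.55 FPKM (*Mcm3* in NKO3), each with NKO3 on top, and *Mcm2* from 0.498 FPKM in WT2 to 1.53 FPKM in WT1. *Gmnn* was at 3.14 to 6.34 FPKM, with WT3 and WT4 highest, and *Pcna* at 6.00 to 10.9 FPKM, with WT2 highest. The groups overlapped in all 8 genes, and their log2 fold changes lay between −0.27 and 0.68.

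The nucleotide supply genes did not share one order either. *Rrm2*, the S-phase subunit of ribonucleotide reductase, was at 1.99, 0.875, 3.96 and 4.81 FPKM in the NKO livers and at 3.75, 1.91, 1.92, 2.55 and 2.23 FPKM in the WT livers. It was lowest in NKO3, the liver in which the large subunit gene *Rrm1* (1.05 FPKM, others 0.471 to 0.835) and the thymidine kinase gene *Tk1* (3.49 FPKM, others 1.08 to 2.32) were highest. *Tyms*, thymidylate synthase, was at 0.642 to 1.16 FPKM. The log2 fold changes of the 4 genes were 0.02 to 0.43, with limma adjusted p-values of 0.900 to 0.996.

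Among the G1 genes, *Ccnd1*, cyclin D1, was by far the most abundant. It was at 19.9, 54.2, 18.4 and 14 FPKM in NKO2 to NKO5 and at 14.1, 22.3, 24.8, 17.4 and 21.7 FPKM in WT1, WT2, WT3, WT4 and WT6. NKO3 lay far above the other 8 livers, and without it the log2 fold change went from 0.22 to −0.19. WT1, which led the mitosis genes, had the second lowest *Ccnd1*.

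*Cdk4* was at 9.39, 10.8, 8.52 and 8.53 FPKM in the NKO livers and at 9.51, 11.5, 7.09, 5.72 and 6.62 FPKM in the WT livers. *Cdk2* was at 0.754, 1.77, 0.477 and 0.61 FPKM and at 0.669, 1.86, 0.711, 0.549 and 0.935 FPKM. NKO3 and WT2 held the highest values of both kinase genes, well apart from the rest for *Cdk2*. As a background, 20.5% of all genes tested were highest in NKO3 and 25.8% in WT2, so such a place is common. *Ccne1* and *Ccne2*, the E-type cyclin genes, were below the filter, at 0.197 to 0.896 and 0.128 to 0.435 FPKM, and had log2 fold changes of −0.78 (two-sided exact permutation p = 0.0794) and −0.21 (p = 0.484). Of the 2 transcription factor genes, *E2f1* was at 0.331 to 0.854 FPKM and highest in WT2, and *Foxm1*, below the filter at 0.028 to 0.356 FPKM, was highest in WT1 like the mitosis genes it controls.

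The 6 brakes and stress-responsive genes held both members with an unadjusted p under 0.05. *Ccng1*, cyclin G1, a p53 target (chr11:40748552-40755311), was at 9.07, 8.03, 7.31 and 8.97 FPKM in the NKO livers and at 13.7, 9.05, 10.3, 9.89 and 10.5 FPKM in the WT livers. NKO2 and WT2 just overlapped and the other WT livers were all higher. The mean was 8.35 ± 0.834 FPKM (SD, n = 4) in NKO mice and 10.7 ± 1.76 FPKM (SD, n = 5) in WT mice. The log2 fold change was −0.35 ± 0.14 (SE; limma p = 0.0298, adjusted p = 0.842, two-sided exact permutation p = 0.0238). The smallest p this permutation test can give is 0.00794.

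*Cdkn1b*, p27 (chr6:134920401-134925513), was at 2.27, 2.18, 3.37 and 2.73 FPKM in the NKO livers and at 3.13, 3.47, 3.41, 3.28 and 3.22 FPKM in the WT livers. The 5 WT livers lay close together and NKO4 lay among them, while the other 3 NKO livers were below. The log2 fold change was −0.33 ± 0.14 (SE; limma p = 0.0385, adjusted p = 0.842, two-sided exact permutation p = 0.0317). Neither result was stable to single libraries: the unadjusted limma p of *Ccng1* was over 0.05 without NKO3 (0.0585), NKO4 (0.0863), WT1 (0.0587) or WT6, and that of *Cdkn1b* stayed under 0.05 only without NKO4 (0.0052) or WT1 (0.0497).

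*Ccng2*, cyclin G2, a brake that FoxO factors switch on in resting cells, was at 1.27, 0.456, 1.18 and 1.33 FPKM in the NKO livers and at 2.24, 3.04, 1.04, 1.67 and 1.42 FPKM in the WT livers. WT3 was the 1 WT liver inside the NKO range, and NKO3 lay well below all others. The log2 fold change was −0.78 ± 0.36 (SE; limma adjusted p = 0.844), and −0.45 without NKO3. In the 6 libraries of higher depth it was −1.31, with an unadjusted limma p of 0.0186 and an adjusted p of 0.867. It was the only one of the 25 tested members with an unadjusted p under 0.05 there, where 1.26% of all genes tested were higher and 4.09% lower.

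*Cdkn1a*, p21 (chr17:29090976-29100727), had the widest range of the 25 tested members. It was at 18.8, 0.946, 21.8 and 14 FPKM in the NKO livers and at 27.7, 2.60, 34.5, 52.3 and 39.8 FPKM in the WT livers. NKO3 and WT2 lay far below the other 7 livers, 1 in each group, and among those 7 the 3 NKO livers were all below the 4 WT livers. This last order was seen after the values were known and is given with no test. The log2 fold change was −1.33 ± 1.07 (SE; limma adjusted p = 0.902). It was −0.31 without NKO3, −2.09 without WT2 and 0.03 in the 6 libraries of higher depth.

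The same pair of livers stood apart in *Cdk2*, as above, and in metabolic genes named here after their values were seen. *Cyp2e1*, the ethanol-oxidising cytochrome P450, was at 2217 and 2087 FPKM in NKO3 and WT2 and 1151 to 1606 FPKM elsewhere. *Cps1*, the periportal urea cycle enzyme, was at 356 and 368 FPKM in them and 598 to 703 FPKM elsewhere. What sets this pair apart was not tested.

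*Gadd45a*, a DNA damage and stress response gene, was at 4.57, 3.20, 42.6 and 9.14 FPKM in the NKO livers and at 12.6, 1.81, 6.22, 8.55 and 8.05 FPKM in the WT livers. NKO4 lay far above the rest, and NKO3 and WT2 were again lowest. The log2 fold change was 0.46 ± 0.76 (SE; limma adjusted p = 0.952) and −0.30 without NKO4. *Plk2*, a p53-induced polo-like kinase gene, ranged from 0.99 FPKM in WT4 to 2.36 FPKM in NKO3, with a log2 fold change of 0.10.

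**Figure D3:**
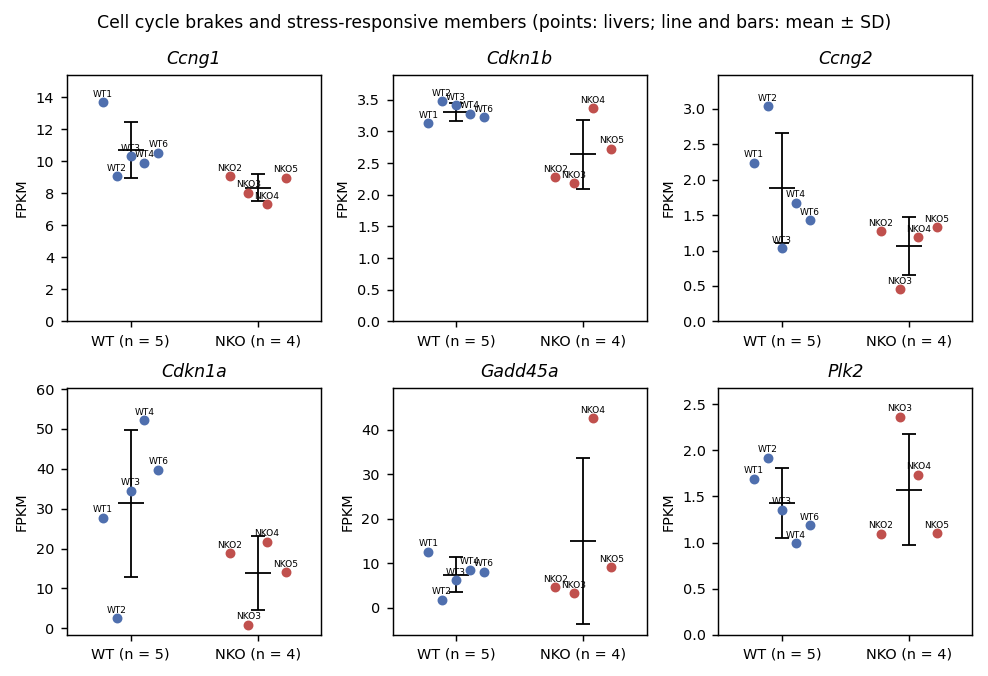
FPKM of the 6 brake and stress-responsive genes in each liver (points, named by library), WT (n = 5) in blue and NKO (n = 4) in red, with the mean and SD of each group in black. *Ccng1* and *Cdkn1b* lie mostly lower in NKO livers, *Cdkn1a* is near the axis in NKO3 and WT2, and *Gadd45a* is at 42.6 FPKM in NKO4.

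In the 6 libraries of higher depth, 36 of the 41 members had a lower mean in NKO mice, against 25 of 41 over all 9 libraries. Those that were higher over all libraries and lower in the 6 were *Cdk4*, *Mcm3*, *Mcm5*, *Mcm6*, *Mcm7*, *Rrm1*, *Rrm2*, *Tyms*, *Aurkb*, *Cdc20*, *Stmn1* and *Plk2*. Several other lists leaned the same way, and the share of all genes with a lower mean there was not counted. At an unadjusted p under 0.05, 4.09% of all genes tested were lower there and 1.26% higher. Lower means were also seen there for 20 of 28 other RB, E2F and CDK genes and 17 of 22 p53 targets. WT1 and WT2 are the only WT libraries in that comparison. Of 10 neutrophil markers 9 were higher there, but only 3 passed the filter and 7 were absent in some libraries. Over all libraries 6 were higher and 4 lower, with a median log2 fold change of 0.022. Their sum was 19.97 FPKM in NKO5, 3.399 to 5.095 FPKM in the other NKO livers and 4.908 to 10.94 FPKM in WT livers. No difference in neutrophils is read from these low values. By staining, the paper found fewer MPO-positive neutrophils in NKO livers. Of the macrophage markers, led by *Cd5l* and *C1qa*, all 12 were lower in NKO mice in the 6 libraries of higher depth. Their median log2 fold change was −0.89. Of the 12, 7 had an unadjusted limma p under 0.05 there, where 4.09% of all genes tested were lower. Over all libraries 9 of 12 were lower, 1 of them at that threshold, with a median of −0.10. Their sums were 174 to 351 FPKM in NKO mice and 154 to 484 FPKM in WT mice. Their part in the member values was not tested.

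**Figure D4:**
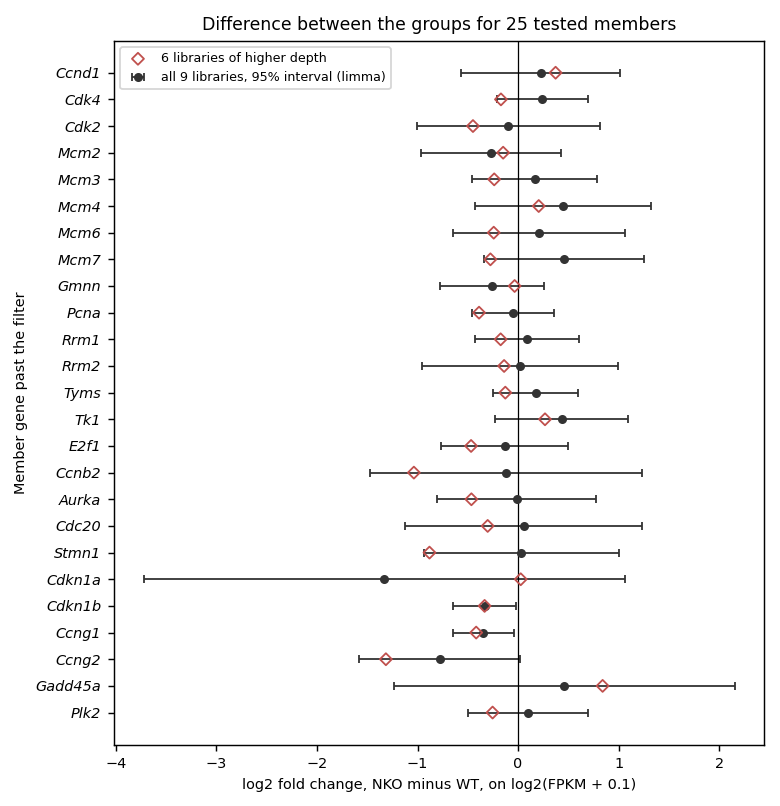
log2 fold change, NKO minus WT, on the log2(FPKM + 0.1) scale for the 25 tested members (rows), with 95% limma intervals over all 9 libraries (black) and the value in the 6 libraries of higher depth (red diamonds). The intervals of *Cdkn1b* and *Ccng1* alone leave out 0, and none of these genes passes after adjustment.

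Other genes of the cycle were read from lists written from general knowledge. Of 42 further mitosis genes in the table, 35 were highest in WT1, and of 32 further replication genes 15 were highest in NKO3 and 7 in WT1. Of the 11 mitosis genes past the filter, 3 were higher and 8 lower in NKO mice, with a median of −0.11 that went to −0.0046 without WT1, and 1, *Wee1*, had an unadjusted p under 0.05, where 2.17% of all genes tested were higher at that threshold. *Wee1*, the kinase that holds CDK1 inactive, was at 3.60, 5.12, 5.33 and 3.39 FPKM in the NKO livers and at 3.01, 3.77, 2.91, 3.18 and 2.83 FPKM in the WT livers. WT2 alone reached into the NKO range, and the log2 fold change was 0.44 ± 0.17 (SE; limma adjusted p = 0.839). Of the 23 replication genes past the filter 14 were higher and 9 lower, and of 22 genes of the RB, E2F and CDK network 9 were higher and 13 lower, 0 of either at an unadjusted p under 0.05. The 3 further CDK inhibitor genes past the filter, *Cdkn2c*, *Cdkn2d* and *Cdkn1c*, had log2 fold changes of −0.23, −0.25 and −0.20. Of 6 hepatocyte mitogen and receptor genes past the filter 1 was higher and 5 lower, with a median of −0.16.

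Targets of p53 and FoxO factors, which also control several of the brakes, had more lower than higher means. Of 16 p53 targets past the filter, 12 were lower and 4 higher in NKO mice, with a median log2 fold change of −0.14, and 3 had an unadjusted p under 0.05, all lower (*Mdm2*, *Ei24* and *Trp53inp1*), where 3.73% of all genes tested were lower at that threshold. Without WT1, 9 of these 16 targets were lower and 7 higher, with a median of −0.099. The log2 fold change of *Trp53inp1*, a p53-induced gene, was −1.34 over all libraries and −0.70 without NKO3. *Mdm2*, the ubiquitin ligase that turns p53 over, was at 3.14, 4.03, 4.47 and 4.03 FPKM in the NKO livers and at 5.65, 4.63, 4.87, 5.04 and 5.23 FPKM in the WT livers. Its groups did not overlap, as for 1.5% of all genes tested that were lower, and the log2 fold change was −0.38 ± 0.13 (SE; limma adjusted p = 0.812).

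Of 15 genes of the FoxO and fasting list past the filter, 12 were lower and 3 higher, with a median of −0.26, and 3 had an unadjusted p under 0.05, all lower (*Pck1*, *Ppargc1a* and *Pdk4*), where again 3.73% of all genes tested were. The median ranged from −0.43 to −0.20 with single libraries left out. *Pck1*, the gluconeogenic enzyme gene, was at 365 to 857 FPKM in NKO livers and 990.2 to 1532 FPKM in WT livers with no overlap, where 1.5% of all genes tested lay lower without overlap. Its log2 fold change was −1.27 ± 0.24 (SE; limma adjusted p = 0.475). Of 13 immediate early and *Gadd45* genes 11 were lower and 2 higher, with a median of −0.61, and *Ier2*, an immediate early gene, was the 1 with an unadjusted p under 0.05. NKO3 was the lowest library for 11 of these 13 genes, where it was lowest for 15.0% of all genes tested, and without it 9 were lower and 4 higher, with a median of −0.27. No gene of these lists passed the adjusted threshold.

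The genes most like *Ccng1*, *Cdkn1b* and *Ccng2* across the 9 libraries were read as a description. By Pearson correlation of log2(FPKM + 0.1), *Tpra1* (r = 0.97), *Gins1* (0.94) and *Cstb* (0.92) were nearest to *Ccng1*, *Aprt* (0.96), *Hpn* (0.93) and *Nceh1* (0.93) to *Cdkn1b*, and *Btg1* (0.98), *Ndufaf3* (0.96) and *Pxmp4* (0.94) to *Ccng2*. The 9 points share their libraries and their depth, and these are the highest of 12350 values, so they carry no test.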

How the data were processed

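The study made stranded poly(A) libraries from liver RNA and read them as paired ends. The submitters' processing notes and the methods name HISAT2 and StringTie for mapping and assembly and edgeR for expression levels; versions, genome build and annotation are not given in the sources used here. The deposited FPKM values, made by the authors, hold 1 column per library, with absent genes at 0.0001. The authors' ratio of the groups, its log2 value and their p-value and q-value columns are deposited too and were not used. Columns were placed by name in their group alone, and p-values measure the spread between mice.

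As counts were not part of the table, depth was inferred from the FPKM steps of 15108 single-exon genes. The comparison of NKO with WT used limma 3.58.1 (R 4.3.3), with a trend and log2(FPKM + 0.1) values, over the 12350 genes whose mean reached 0.5 FPKM, with Benjamini-Hochberg adjustment. This scale understates changes of low genes. For single genes an exact permutation test (two-sided, 126 splits) was added. Python 3.11.15 and matplotlib 3.10.9 were used for tables and figures, and the fit was tested on simulated data. Coordinates come from GENCODE M21 of GRCm38, whose identifiers matched 55141 table genes. Promoters come from RefSeq (GRCm38.p6).

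Members and lists were chosen with earlier results of these data known. All members are named, with up to 4 genes of each other list by smallest p, the 2 most abundant markers, and the 3 genes most like each of the 3 members of smallest p. Other pseudocounts, filters, scaling, variance models and library subsets were tried as alternatives.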

Additional observations from a re-analysis of the deposited data

Results flagged for a closer look

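In groups of 4 or 5 livers, 13 member values of 82 gene and group pairs stood apart from the rest of their group by Dixon's criterion. Its chance rate of about 1 in 20 holds for independent normal values. Untransformed FPKM of genes that move together need not meet this, so the count is not set against chance. Of these, 9 were mitosis genes in WT1, which move together and share 1 liver: *Ccnb1* (0.634 FPKM), *Ccnb2* (1.96), *Cdk1* (0.918), *Plk1* (1.11), *Aurka* (1.18), *Aurkb* (0.684), *Bub1b* (0.673), *Cdc20* (2.0) and *Birc5* (0.812). *Ccnb1* also stood apart in NKO2, at 0.287 FPKM against 0.0236 to 0.0588 in the other NKO livers. *Ccnd1* stood apart in NKO3, at 54.2 FPKM against 14 to 19.9. *Ccng2* was low in NKO3, at 0.456 FPKM against 1.18 to 1.33. *Gadd45a* stood apart in NKO4, at 42.6 FPKM against 3.20 to 9.14.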

How the results depend on the processing

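The count of members with an adjusted limma p under 0.05 was 0 under every alternative run. Over all genes tested that count was 1, and it was 0 with no filter on low values, 0 with limma with no trend, 6 with array weights and 0 to 1 with single libraries left out. Members with an unadjusted p under 0.05 numbered 0 higher and 2 lower, 0 to 1 higher (*Tk1* without NKO5, *Cdk4* without WT2) and 0 to 2 lower with single libraries left out, and 1 lower in the 6 libraries of higher depth. Of all genes tested, 2.17% were higher and 3.73% lower over all 9 libraries, and 1.26% and 4.09% in the 6. Such shares were not counted with single libraries left out, so *Tk1* and *Cdk4* have no background there. No paired analysis was possible because the columns were tied to groups only, by names whose numbers differ from the labelled replicate numbers. Of 1135 alternative values of single genes, 65 had the opposite sign, and 46 of 72 results never did.

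In the 6 libraries of higher depth the log2 fold changes of opposite sign were *Cdk4* −0.17, *Mcm3* −0.24, *Mcm5* −0.33, *Mcm6* −0.24, *Mcm7* −0.28, *Rrm1* −0.17, *Rrm2* −0.14, *Tyms* −0.13, *Aurkb* −0.91, *Cdc20* −0.30, *Stmn1* −0.88, *Plk2* −0.25, *Rfc3* −0.50, *Cdkn1a* 0.0265 and *Foxo1* 0.0612. With array weights they were *Ccnd1* −0.11, *Cdc20* −0.13, *Pcna* 0.095, *Ccnb2* 0.0466 and *Aurka* 0.0185. With a pseudocount of 0.5 they were *Aurkb* −0.00476 and *Cdc20* −0.0252, and with a pseudocount of 1 *Aurkb* −0.0119, *Cdc20* −0.0422 and *Stmn1* −0.00462. With single libraries left out the ranges that crossed 0 were *Ccnd1* −0.19 to 0.46, *Cdk2* −0.45 to 0.16, *Mcm3* −0.0463 to 0.32, *Mcm6* −0.0112 to 0.54, *Pcna* −0.15 to 0.0662, *Rrm1* −0.0827 to 0.18, *Rrm2* −0.30 to 0.48, *Foxm1* −0.41 to 0.022, *Ccna2* −0.70 to 0.0318, *Ccnb2* −0.52 to 0.28, *Aurka* −0.24 to 0.22, *Aurkb* −0.21 to 0.49, *Cdc20* −0.21 to 0.24, *Ube2c* −0.61 to 0.23, *Top2a* −0.68 to 0.0104, *Stmn1* −0.15 to 0.33, *Gadd45a* −0.30 to 0.94, *Plk2* −0.11 to 0.24 and *Yap1* −0.0779 to 0.00996. The cause of these sign changes was not tested. Depth limits low members of several roles, among them *Top2a*, *Foxm1*, *Mcm5*, *Ccne1* and *Ccne2*, which each had under 10 fragments in some livers.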
